A study of Mus musculus with 8 samples.

Results

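The D-type cyclins Ccnd1, Ccnd2 and Ccnd3, their kinase partners Cdk4 and Cdk6, and the inhibitors Cdkn1a, Cdkn1b, Cdkn1c, Cdkn2c and Cdkn2d were followed in hematopoietic stem and progenitor cells (HSPC) of mouse bone marrow. These 10 genes were taken by symbol from a table of read counts with 23282 named entries, and all 10 passed the filter on low counts, among 13005 genes tested. One group was 4 samples labelled as coming from Hdc-/- mice, the other 4 samples of wild-type (WT) mice, both on C57BL/6. Each sample was 2000 sorted cells, whose RNA was amplified and sequenced. Histidine decarboxylase, the product of Hdc, is the enzyme of histamine synthesis. The sources used here give neither sort markers, sex or age, nor the altered part of Hdc. They also do not say that replicates came from different animals, so each p-value reflects spread between samples that may be partly technical.

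In early G1, D-type cyclins bind Cdk4 or Cdk6, and the active kinases phosphorylate the retinoblastoma family of pocket proteins, which frees E2F factors to turn on genes for DNA replication. INK4 inhibitors (Cdkn2c, Cdkn2d) bind Cdk4 and Cdk6 directly, and CIP/KIP inhibitors (Cdkn1a, Cdkn1b, Cdkn1c) act mainly on cyclin E and cyclin A complexes with Cdk2. In mouse bone marrow, Cdkn1c is known for keeping stem cells out of cycle, and Cdk6 for helping quiescent stem cells to leave that state.

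The libraries held 16327004 to 19780135 reads each. Hdc itself had 740 to 875 reads in each library labelled Hdc-/-, and 199 to 275 reads in each of WT. Its RNA was thus more abundant in the group whose label names its loss, so the group is called the libraries labelled Hdc-/- and every direction rests on that label. Among 11 tested HSPC markers, examples that passed the test were Flt3, which rose, and Ly6a, which encodes Sca-1 and fell. None of the 11 was at 0 reads in all libraries, and their summed level was 5999 to 6210 CPM in libraries labelled Hdc-/- against 5047 to 5892 CPM in WT. Other cell types' markers moved with the groups. Of 10 red cell markers 9 rose, and their summed level was 417 to 475 CPM (read counts relative to library size, after TMM scaling) in libraries labelled Hdc-/- against 85.3 to 104 CPM in WT. Of 10 neutrophil markers 9 fell (793 to 1410 CPM summed in libraries labelled Hdc-/-, against 2605 to 4081 CPM in WT), as did 6 of 7 tested B cell markers (155 to 173 CPM, against 247 to 319 CPM). Of 3 tested T and NK cell markers 1 fell. The summed level of that list was at most 283 CPM in libraries labelled Hdc-/-, against at least 335 CPM in WT. None of 9 macrophage and 4 stromal or endothelial markers passed edgeR's test. An unadjusted p under 0.05 was reached by 6 of the 9 and 1 of the 4, against 18.7% of all genes. Of the 9 macrophage markers 8 were higher in libraries labelled Hdc-/-. Their summed level was at least 83.7 CPM there, against at most 74.5 CPM in WT. The stromal and endothelial sums overlapped between groups. No marker of these lists in the table was at 0 in all libraries.

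Ccnd2 was the only one of the 10 genes to pass the test: it was 21.2% higher in the libraries labelled Hdc-/-. By edgeR's quasi-likelihood test with Benjamini-Hochberg adjustment, 1 of the 10 genes rose and none fell at an adjusted p under 0.05, where 4.76% of all genes tested were called, 2.05% higher and 2.71% lower. An unadjusted p under 0.05 was reached by 3 of the 10, Ccnd2, Cdkn1a and Cdk4, against 18.7% of all genes. In the same 3 the groups did not overlap, against 12.5% of all genes. Fold changes (libraries labelled Hdc-/- over WT, log2 scale) ran from -0.33 for Cdkn1a to 0.28 for Cdkn1c and Ccnd2, 5 above 0 and 5 below, and their median absolute size, 0.117, was close to the 0.124 of all genes. The 95% intervals of all 10 lay within a doubling or halving, and those of 7 lay within a factor of 1.5.

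Levels of different genes were compared as CPM per kilobase of exons, so their order rests on the lengths taken. Before division by length Ccnd2 stood above Cdk4, at 1012 and 653 CPM in libraries labelled Hdc-/- and 835 and 715 CPM in WT. The exons taken were 6.71 kilobases for Ccnd2 and 2.05 for Cdk4. After division Cdk4 was highest, at 318 ± 5.16 CPM per kilobase in libraries labelled Hdc-/- and 348 ± 25.5 in WT (SD, n = 4 each). Ccnd2 followed at 151 ± 4.49 CPM per kilobase in libraries labelled Hdc-/- and 124 ± 6.40 in WT, and then Ccnd3 at 72.9 ± 1.65 and 75.1 ± 5.39 in the same order of groups. The ranges of these 3 genes did not overlap in either group. The other 7 genes lay far below them, with every library between 1.73 and 15.3 CPM per kilobase. Ccnd1 came next, at 10.6 ± 1.47 CPM per kilobase in libraries labelled Hdc-/- and 9.77 ± 3.84 in WT, and its WT range overlapped that of Cdk6, which stood at 7.62 ± 0.482 and 7.72 ± 0.222.

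Among the inhibitors the order was less firm. Cdkn1c had 7.32 ± 0.0150 CPM per kilobase in libraries labelled Hdc-/- and 6.03 ± 1.42 in WT, and overlapped Cdk6 in both groups. Cdkn1a had 5.54 ± 0.280 CPM per kilobase in libraries labelled Hdc-/-, where it lay below Cdkn1c in every library, and 6.98 ± 0.866 in WT, where their ranges overlapped. This order depended on the length used: per kilobase of the longest transcript, an alternative chosen after the data were seen, Cdkn1a had 7.66 and Cdkn1c 7.46 CPM in library 3 labelled Hdc-/-. Cdkn2c followed at 4.63 ± 0.384 CPM per kilobase in libraries labelled Hdc-/- and 4.29 ± 0.668 in WT. Cdkn1b, at 3.40 ± 0.506 in libraries labelled Hdc-/- and 3.38 ± 0.750 in WT, and Cdkn2d, at 2.87 ± 0.693 and 3.10 ± 1.18, overlapped in both groups. The other INK4 genes, Cdkn2a and Cdkn2b, had 0 reads in all 8 libraries, which allows a level of up to 0.152 to 0.184 CPM per library from 3 counts, counting error only.

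**Figure D1:**
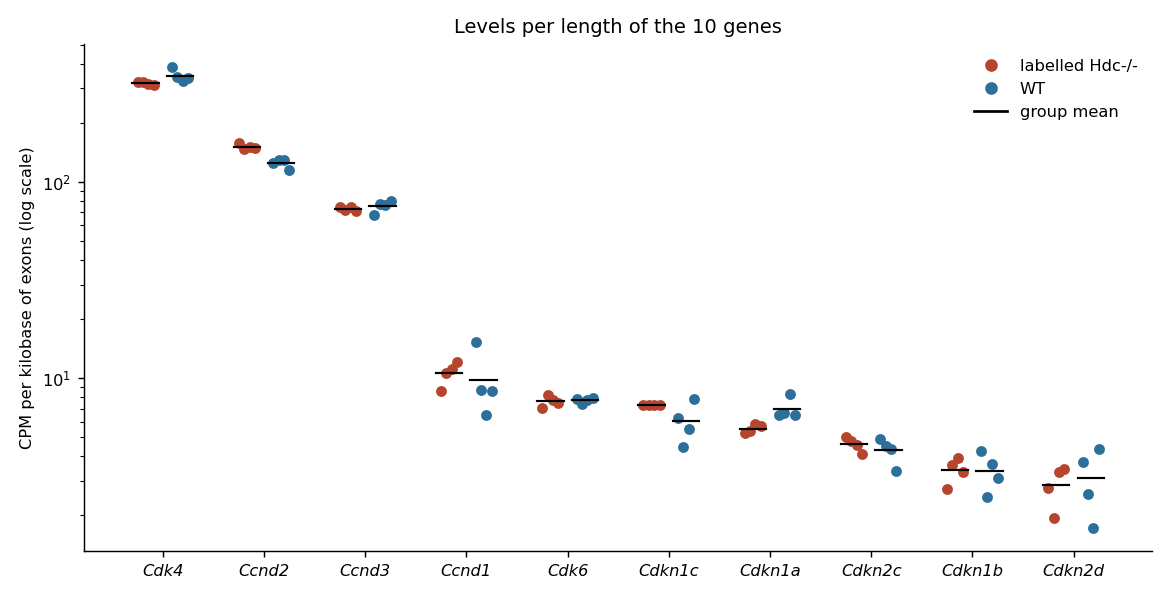
Level of each of the 10 genes in CPM per kilobase of exons (log axis), with 1 point per library, the libraries labelled Hdc-/- left and WT right for each gene, and black lines at the group means. Cdk4, Ccnd2 and Ccnd3 stand clear of the rest, whose highest single value is 15.3.

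Among the cyclins, Ccnd2, the D-type cyclin with the highest level per length here, had 20823, 17788, 19705 and 17262 reads in libraries 1, 2, 3 and the unnumbered one labelled Hdc-/-, against 14404, 14072, 15644 and 13847 reads in WT libraries 1 to 4. After scaling these were 1054, 982, 1012 and 1002 CPM in the libraries labelled Hdc-/-, against 836, 864, 867 and 774 CPM in WT. The lowest library labelled Hdc-/- lay above the highest WT library. The difference was 0.28 on the log2 scale (SE 0.05, 95% interval 0.17 to 0.39, adjusted p = 0.0036 by edgeR). The rise passed in each of the 8 fits that left out 1 library, with log2 fold changes of 0.24 to 0.30. It did not pass with only libraries 1 to 3 of each group (0.25, adjusted p = 0.0574).

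Ccnd3, the D-type cyclin most used by maturing lymphoid and erythroid cells, did not pass the test. It had 182, 176, 182 and 174 CPM in libraries 1, 2, 3 and the unnumbered one labelled Hdc-/-, against 165, 188, 186 and 196 CPM in WT libraries 1 to 4. All 4 libraries labelled Hdc-/- lay inside the range of WT. Its difference was -0.04 on the log2 scale (SE 0.06, adjusted p = 0.775 by edgeR), with a 95% interval of -0.18 to 0.09.

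Ccnd1, the cyclin best known as a target of mitogen signalling, varied most among the cyclins. It had 32.3, 39.7, 41.5 and 45.5 CPM in libraries 1, 2, 3 and the unnumbered one labelled Hdc-/-, against 57.3, 32.5, 24.3 and 32.1 CPM in WT libraries 1 to 4. WT 1 was the highest of all 8 libraries and WT 3 the lowest. For Ccnd1 the log2 fold change was 0.12 (SE 0.21, 95% interval -0.34 to 0.58, adjusted p = 0.819 by edgeR). Without WT 1 it was 0.43 (SE 0.12, adjusted p = 0.0556), and without WT 3 it was -0.03. WT 1 was also the library that stood apart from the other WT libraries on the second principal component of all genes, which held 14.97% of the variance.

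**Figure D2:**
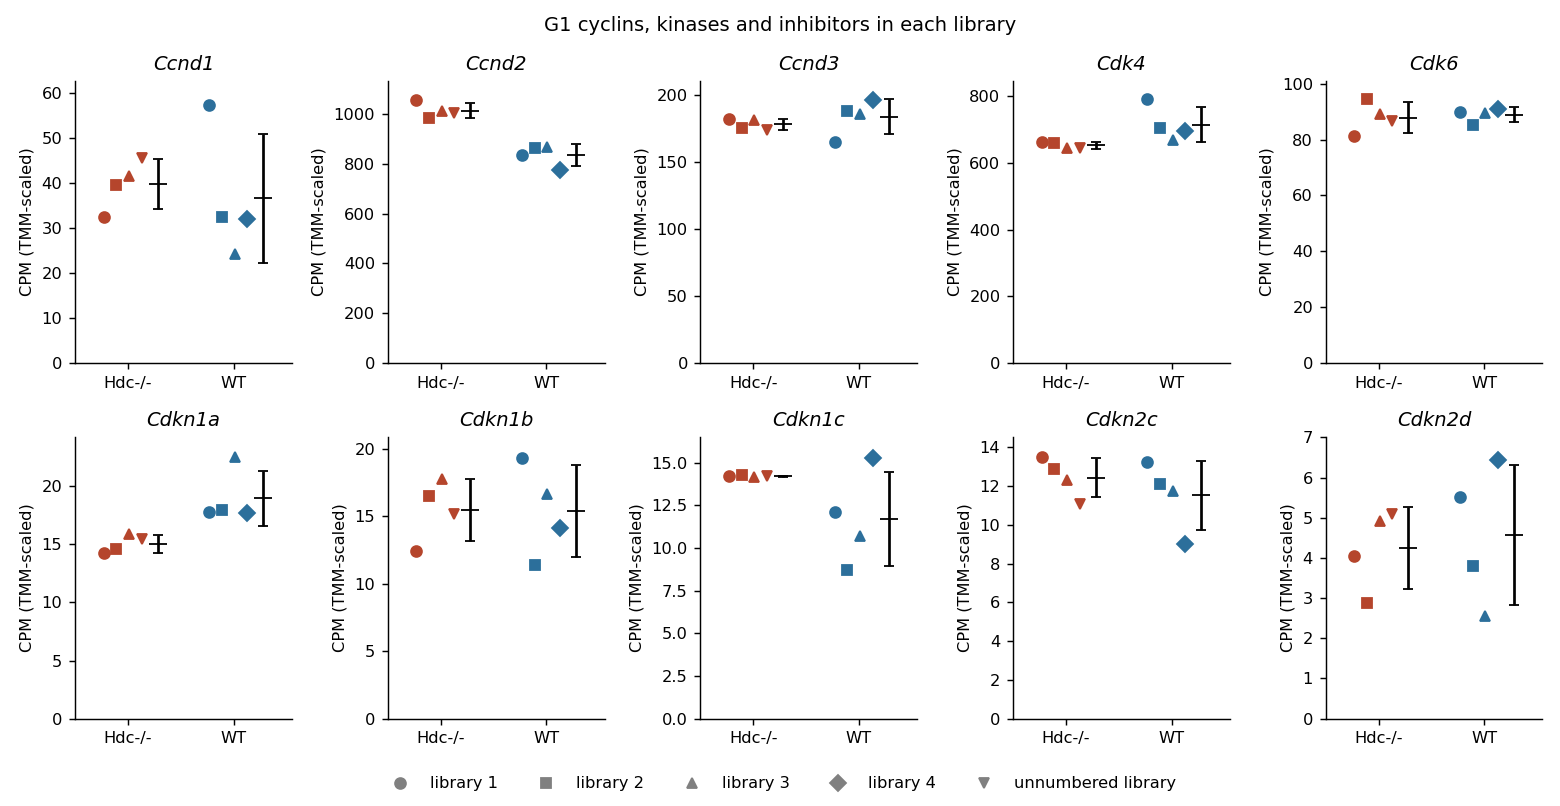
CPM after TMM scaling in each library for the 10 genes, one panel per gene with its own axis from 0, the libraries labelled Hdc-/- left and WT right, symbols marking the library number, and bars at mean ± SD (n = 4 each). The groups stand apart in Ccnd2, Cdk4 and Cdkn1a, and WT 1 is far above the other WT libraries in Ccnd1.

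Of the kinases, Cdk4 had 664, 661, 645 and 643 CPM in libraries 1, 2, 3 and the unnumbered one labelled Hdc-/-, against 790, 704, 670 and 695 CPM in WT libraries 1 to 4. All 4 libraries labelled Hdc-/- lay below all 4 WT libraries, but the gap between the nearest libraries, 664 CPM in library 1 labelled Hdc-/- and 670 CPM in WT 3, was narrower than the SD of either group (10.6 CPM and 52.4 CPM). For Cdk4 the log2 fold change was -0.13 (SE 0.06, 95% interval -0.25 to -0.01, unadjusted p = 0.034, adjusted p = 0.220 by edgeR), and without WT 1 it was -0.08. On the GENCODE annotation 31.2% of Cdk4's exonic bases overlap Tspan31 on the opposite strand, and the library kit does not mark strand. Tspan31, looked up for this overlap, differed by -0.18 on the log2 scale (SE 0.07, adjusted p = 0.168 by edgeR), and the values of both genes are uncertain by the reads they share. Shared exonic bases also made up 30.3% for Cdkn1c, 21.9% for Ccnd1 and 14.8% for Ccnd3.

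The group means of Cdk6 were close. It had 81.2, 94.6, 89.2 and 86.5 CPM in libraries 1, 2, 3 and the unnumbered one labelled Hdc-/-, against 90.0, 85.2, 89.5 and 91.1 CPM in WT libraries 1 to 4. The WT libraries lay inside the range of those labelled Hdc-/-. The difference on the log2 scale was -0.02 (SE 0.07, adjusted p = 0.930 by edgeR), with a 95% interval of -0.17 to 0.13, narrower than that of any inhibitor.

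Ratios of reads between genes of 1 library do not depend on how libraries are scaled. Ccnd2 had 5.79, 5.59, 5.57 and 5.75 reads per read of Ccnd3 in libraries 1, 2, 3 and the unnumbered one labelled Hdc-/-, against 5.06, 4.596, 4.67 and 3.94 in WT 1 to 4. Per read of Cdk4 it had 1.59, 1.49, 1.57 and 1.56 in the libraries labelled Hdc-/-, against 1.058, 1.23, 1.29 and 1.11 in WT. In both ratios the groups did not overlap. For the ratio to Cdk4 this follows from the 2 genes, which each separated the groups in opposite directions, and adds nothing to them. Of the other ratios computed, Ccnd2 to Cdk6 and Ccnd2 to Cdkn1a did not overlap between the groups, and Ccnd3 to Cdk4 and Cdk6 to Cdk4 did. Per kilobase, Ccnd2 made up 64.4 ± 0.717% of the summed D-type cyclin level in libraries labelled Hdc-/- and 59.4 ± 2.001% in WT (SD, n = 4 each). Ccnd3 made up 31.1 ± 0.393% in libraries labelled Hdc-/- and 35.9 ± 2.75% in WT, and Ccnd1 4.54 ± 0.681% and 4.68 ± 1.88%. These ratios and shares are descriptions of genes chosen with earlier results known and carry no test.

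**Figure D3:**
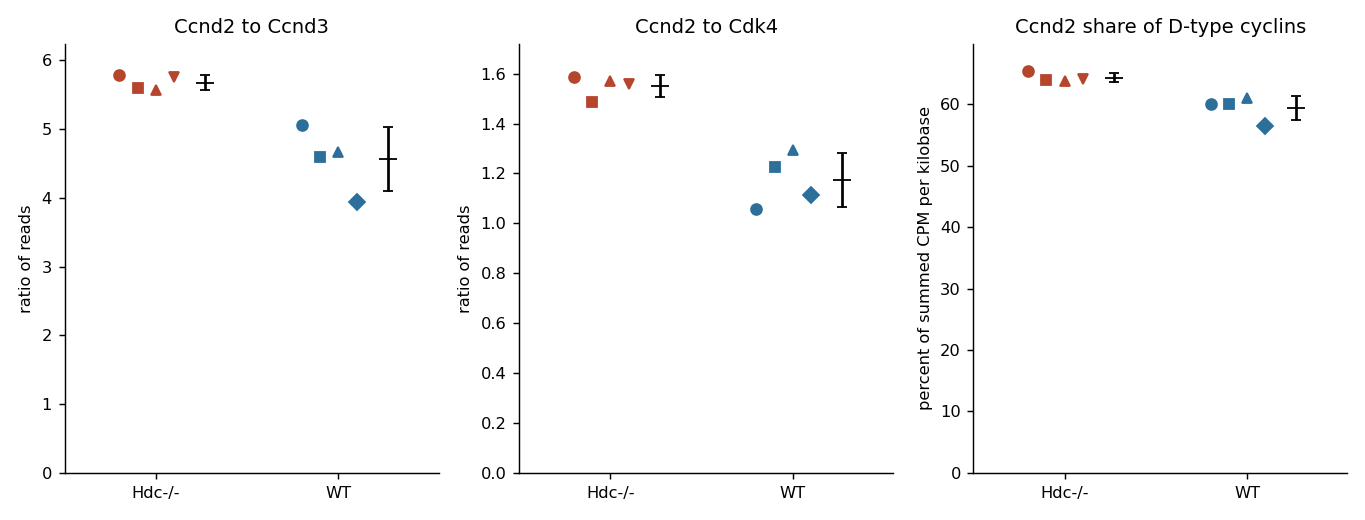
Ratio of Ccnd2 reads to Ccnd3 reads and to Cdk4 reads, and the share of Ccnd2 in the summed CPM per kilobase of the 3 D-type cyclins, in each library (axes from 0, libraries labelled Hdc-/- left and WT right, bars at mean ± SD, n = 4 each). In all 3 panels every library labelled Hdc-/- lies above every WT library, which for the ratio to Cdk4 follows from the separation of each gene.

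Of the CIP/KIP inhibitors, Cdkn1a, which encodes p21 and is a target of p53, had 282, 264, 310 and 266 reads in libraries 1, 2, 3 and the unnumbered one labelled Hdc-/-, against 306, 293, 406 and 316 reads in WT libraries 1 to 4. These were 14.3, 14.6, 15.9 and 15.4 CPM in the libraries labelled Hdc-/-, against 17.8, 17.98, 22.5 and 17.7 CPM in WT. The groups did not overlap, and WT 3 was well above the other WT libraries. Its log2 fold change of -0.33 (SE 0.12, 95% interval -0.60 to -0.07, unadjusted p = 0.016) did not pass over all genes (adjusted p = 0.151 by edgeR). Without WT 3 it was -0.24 (adjusted p = 0.319).

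Cdkn1b, which encodes p27, had close group means and a wide spread. It had 12.4, 16.5, 17.8 and 15.1 CPM in libraries 1, 2, 3 and the unnumbered one labelled Hdc-/-, against 19.3, 11.4, 16.7 and 14.1 CPM in WT libraries 1 to 4. The libraries labelled Hdc-/- lay inside the WT range. Its log2 fold change was 0.01 (SE 0.17, adjusted p = 0.989 by edgeR), with a 95% interval of -0.34 to 0.36.

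Cdkn1c, which encodes p57, had 14.2, 14.2, 14.2 and 14.2 CPM (281, 258, 276 and 245 reads) in libraries 1, 2, 3 and the unnumbered one labelled Hdc-/-, against 12.1, 8.71, 10.7 and 15.3 CPM in WT libraries 1 to 4. Of the WT libraries 3 lay below all those labelled Hdc-/- and WT 4 above them. For Cdkn1c the log2 fold change was 0.28 (SE 0.16, 95% interval -0.06 to 0.62, adjusted p = 0.381 by edgeR), the same size as that of Ccnd2 with a larger error, and it moved to 0.16 without WT 2 and to 0.43 without WT 4. The coefficient of variation (CV, SD over mean) in libraries labelled Hdc-/- was 0.205%, against 6.14% from counting alone at that depth, so the closeness of these 4 values is no measure of their precision.

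The INK4 inhibitors were low and did not differ beyond their spread. Cdkn2c, which encodes p18, had 13.5, 12.9, 12.3 and 11.1 CPM in libraries 1, 2, 3 and the unnumbered one labelled Hdc-/-, against 13.2, 12.1, 11.7 and 9.002 CPM in WT libraries 1 to 4 (log2 fold change 0.11, SE 0.15, 95% interval -0.21 to 0.43, adjusted p = 0.747 by edgeR). Cdkn2d, which encodes p19, had 80, 52, 96 and 88 reads in the libraries labelled Hdc-/-, against 95, 62, 46 and 115 reads in WT. It was the gene with the fewest reads and the widest interval (log2 fold change -0.11, SE 0.29, 95% interval -0.72 to 0.50, adjusted p = 0.881 by edgeR). The groups overlapped in both genes.

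The WT libraries varied more than those labelled Hdc-/- in 9 of the 10 genes, Cdk6 being the exception, and in 64.1% of all genes tested. The CV of Ccnd1 was 13.9% in libraries labelled Hdc-/- and 39.3% in WT, that of Cdk4 1.62% and 7.32%, and that of Ccnd2 2.97% and 5.14%. Counting alone would give 0.727% in libraries labelled Hdc-/- and 0.831% in WT for Ccnd2, so most of its spread is beyond the counting of reads. The part of amplification in that spread was not tested. For Cdkn2d counting alone would give 11.3% and 11.2%, where the CV was 24.1% in libraries labelled Hdc-/- and 37.9% in WT. Deviations from group means over the 8 libraries were compared for all pairs of the 10 genes. Ccnd1 went up and down with Cdk4 (Pearson's r 0.83, the highest) and against Ccnd3 (r -0.79). Cdkn1c went against Ccnd2 (r -0.79, the lowest), which rests almost wholly on the WT libraries, since Cdkn1c hardly varied in those labelled Hdc-/-. These are descriptions picked from many pairs. WT 1, high in Ccnd1 and Cdk4 and low in Ccnd3, weighs heavily in those of Ccnd1.

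Of 34 other genes of the G1 to S step in 7 lists, 32 were tested. In the libraries labelled Hdc-/- 2 rose and 1 fell, against 4.76% called over all genes. An unadjusted p under 0.05 was reached by 8, against 18.7% of all genes, and the median log2 fold change was 0.01, against 0.00 over all genes. Tfdp2, a DP partner that binds DNA together with E2F factors, rose to 126 ± 3.33 CPM in libraries labelled Hdc-/-, against 98.6 ± 2.97 CPM in WT (SD, n = 4 each, log2 fold change 0.36, SE 0.06, adjusted p = 0.0024 by edgeR). Mycn, a growth-promoting transcription factor of the Myc family, rose by 0.34 (SE 0.08, adjusted p = 0.0255) and Ccna2, the S phase and G2 cyclin A, fell by 0.26 (SE 0.06, adjusted p = 0.0255). The groups did not overlap in any of these 3 genes. Tfdp2 passed in each fit without 1 library, while the call of Mycn was lost without any 1 of the 4 libraries labelled Hdc-/-, and that of Ccna2 without library 2, 3 or the unnumbered one labelled Hdc-/- or WT 4.

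The other lists of the G1 to S step had no call. The pocket protein gene with the smallest p was Rbl2, which encodes p130, the form tied to quiescent cells (log2 fold change 0.26, SE 0.10, adjusted p = 0.137), and Rbl1, which encodes p107, stood at -0.13 (SE 0.09, adjusted p = 0.467). Without WT 1 Rbl1 passed, at -0.23 (adjusted p = 0.0088). In the Cdk-activating kinase, Ccnh had -0.12 (SE 0.07, adjusted p = 0.349) and Cdk7 0.02 (SE 0.07, adjusted p = 0.930). Among ubiquitin ligase parts, Cks1b, which helps Skp2 to recognise p27, had -0.19 (SE 0.09, adjusted p = 0.239) and Fbxw7, which marks cyclin E for destruction, 0.13 (SE 0.09, adjusted p = 0.469).

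**Figure D4:**
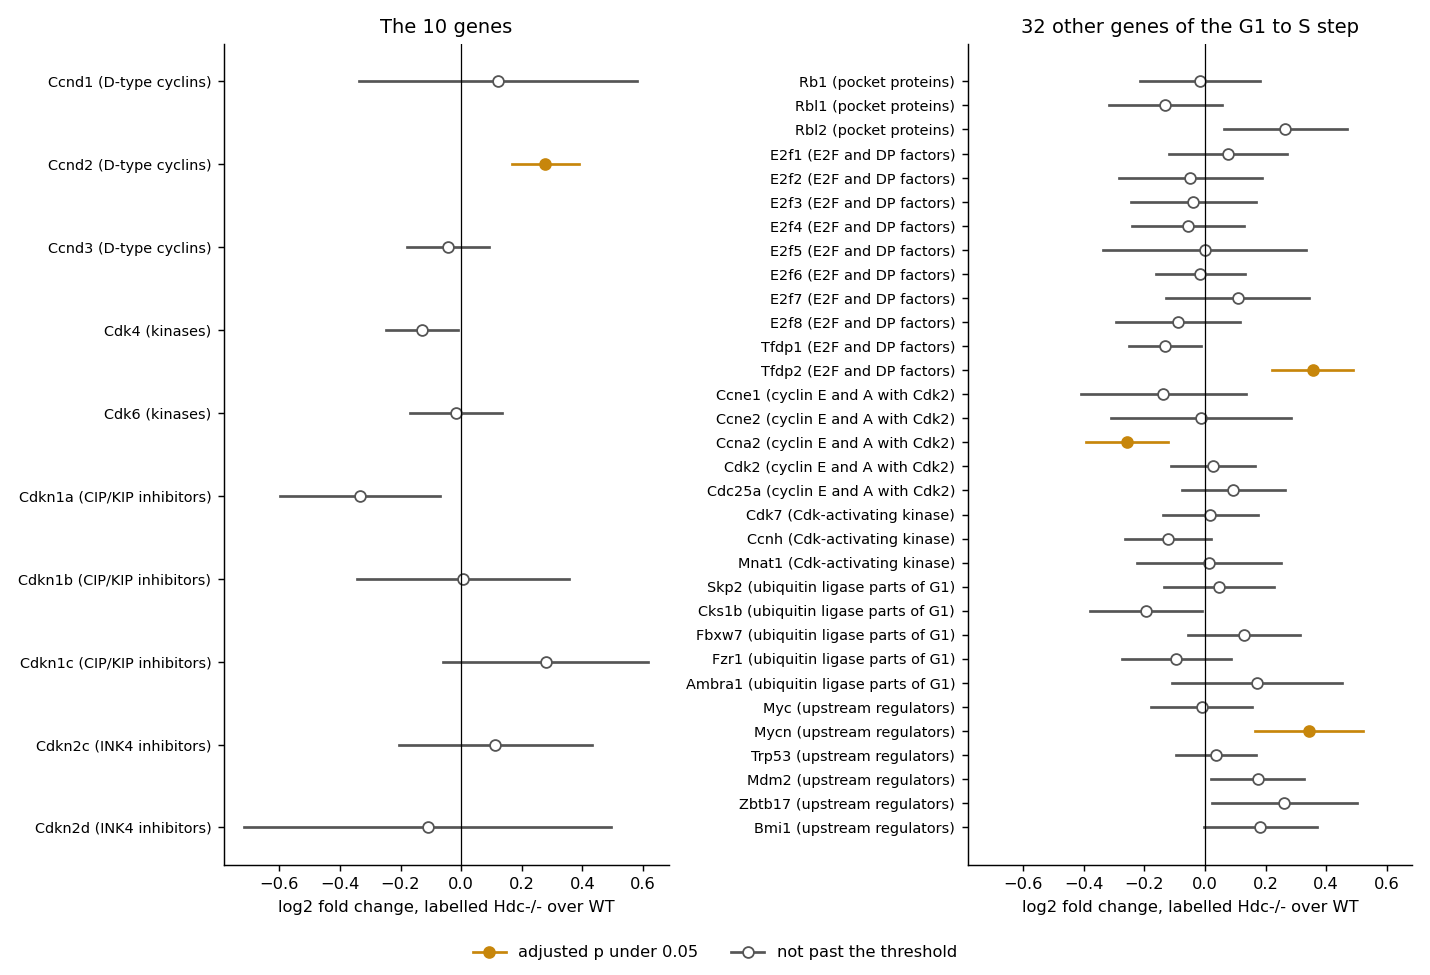
Log2 fold change (libraries labelled Hdc-/- over WT) with its 95% interval from edgeR for the 10 genes and for 32 other tested genes of the G1 to S step, filled where the adjusted p over all genes is under 0.05. Ccnd2, Tfdp2 and Mycn lie above 0 and Ccna2 below, and the other intervals are not past the threshold.

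Genes later in the cycle were lower. Of 16 genes of G2 and mitosis 7 fell and none rose, against 2.71% called lower over all genes. All 16 had a log2 fold change below 0, with a median of -0.30, against 0.00 over all genes. Cdk1, the mitotic kinase, averaged 127 ± 8.64 CPM in the group labelled Hdc-/-, against 167 ± 13.2 CPM in WT (SD, n = 4 each, log2 fold change -0.40, SE 0.07, adjusted p = 0.0028 by edgeR), and Plk1 and Aurkb fell by 0.40 and 0.32. The call of Plk1 was lost in 6 of 18 alternatives, among them the fits without library 2, 3 or the unnumbered one labelled Hdc-/- and without WT 4. The calls of Aurkb and Cdk1 were lost in 2 and 1, all on libraries 1 to 3 of each group. Of 15 genes of S phase entry only Pcna was called, against 4.76% of all genes. Pcna fell by 0.47 (SE 0.08, adjusted p = 0.0020 by edgeR), and 12 of the 15 lay below 0, with a median of -0.07. Of the mitosis genes that fell, Bub1b and Tpx2 lie on chromosome 2, as do Pcna, Rbl1, Stk35 and Hdc itself, and none of the 10 genes does. Whether position on chromosome 2 has a part in these values was not tested. Bub1b had the largest fall of the 7, by 0.58. Of 12 p53 targets other than Cdkn1a only Bbc3, which promotes cell death, was called, against 4.76% of all genes. Its rise was 0.57 (SE 0.15, adjusted p = 0.0313 by edgeR). Of the 12, 8 lay above 0 and 4 below, with a median log2 fold change of 0.18, against 0.00 over all genes. An unadjusted p under 0.05 by edgeR was reached by 5 of the 12, all above 0, against 18.7% of all genes. Cdkn1a itself lay below 0 and did not pass. The call of Bbc3 was lost in 7 of the 8 fits that left out 1 library.

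The genes whose pattern over the 8 libraries was most like that of Ccnd2, among 9702 genes with a mean of at least 10 CPM, were Mtdh (r 0.97), Gem (r 0.97) and Stk35 (r 0.96). An r over 0.9 was reached by 54 genes, and the group difference of Ccnd2 enters each r. Gem averaged 63.6 ± 0.993 CPM in the group labelled Hdc-/-, against 32.5 ± 3.08 CPM in WT (SD, n = 4 each), and Stk35 35.4 ± 3.61 and 15.4 ± 1.32 CPM. As deviations from group means the values were 0.77, 0.73 and 0.65 for Mtdh, Gem and Stk35. The same deviations enter the r by which these genes were picked, so these values are not independent of that choice.

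The rise of Ccnd2 was measured in the same libraries as the higher red cell and lower neutrophil and B cell marker sums given above. In the libraries labelled Hdc-/- the HSPC and macrophage marker sums were also higher, and the T and NK cell sum was lower, without overlap between groups. In samples of mixed cells, a different share of cells that express a gene and a different level per cell cannot be told apart, and the part of these cell types in the values of the 10 genes was not tested. Scaling factors were also computed without the red cell, neutrophil and B cell markers, an alternative chosen after the data were seen. Ccnd2 again was the call among the 10, at 0.28 (adjusted p = 0.0033 by edgeR). That alternative changes only the scaling of libraries, so it does not address the mixture of cells.

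**Figure D5:**
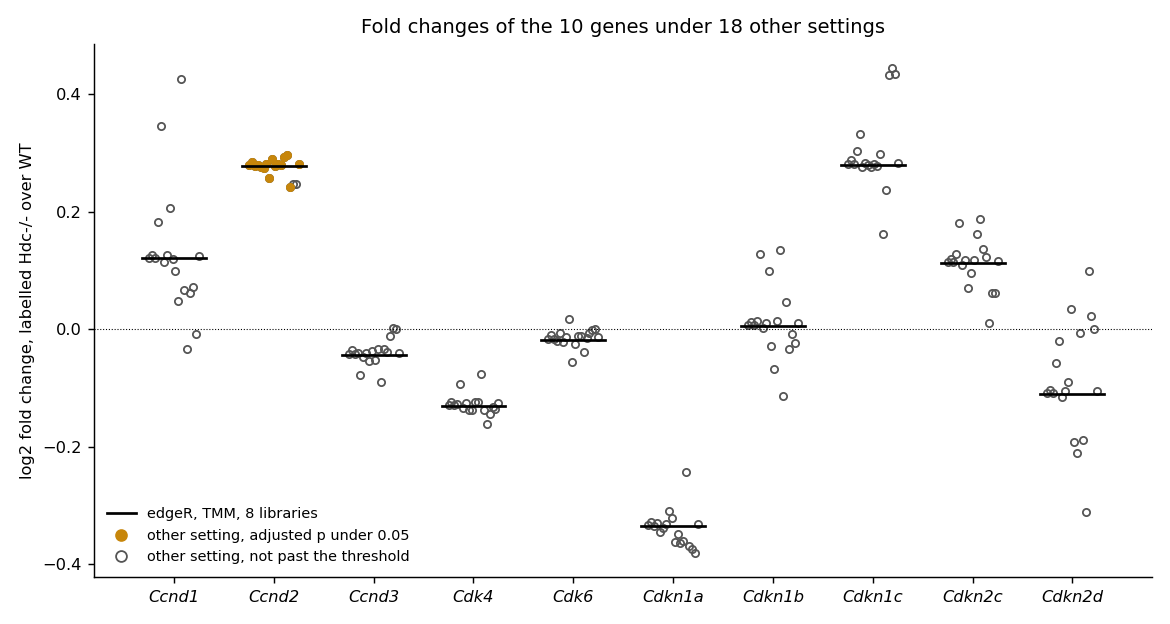
Log2 fold change of the 10 genes under 18 other settings (scaling, tool, filter, libraries left out), with filled points where the adjusted p is under 0.05 and black lines at the value from all 8 libraries. Ccnd2 stays between 0.24 and 0.30, and values of Ccnd1, Ccnd3, Cdk6, Cdkn1b and Cdkn2d fall on both sides of 0.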

How the data were processed

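RNA of 8 HSPC samples was measured by sequencing after amplification. Per the labels' protocols, RNA was isolated with a PicoPure kit, cDNA amplified with a SMARTer kit and libraries made with Nextera XT. The submitters' processing notes name build mm9 and HTSeq 0.6.1, TopHat2 2.0.4, Bowtie2 and bcl2fastq 1.8.4. Annotation and strand setting of the counting were not stated there. The authors deposited raw read counts per gene symbol, without molecular identifiers, so counting error understates the uncertainty. Of 23284 entries, 2 labelled with a number only (at most 0.0320% of reads) were left out. One column labelled Hdc-/- carries a number of no sample title and is called the unnumbered library.

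Counts were tested with edgeR 4.0.16 (R 4.3.3), quasi-likelihood, two-sided, TMM scaling, no covariate, filterByExpr (minimum count 10, total 15), and p-values adjusted over all 13005 genes. SE is the fold change over the square root of F. Alternatives used DESeq2 1.42.0, limma-voom 3.58.1, other scalings and filters, and left-out libraries. Exon lengths and overlaps came from GENCODE M21 (GRCm38), chromosomes from RefSeq GRCm38.p6; both differ from mm9, so no coordinates are given. Within groups Pearson's r across genes was 0.979 to 0.987, and the chi-square statistic per gene was at least 6.84, so libraries were not duplicates. The scripts were tested on simulated data. The genes and lists were chosen with earlier results of these data known. Named genes are the 10 members, Hdc, the called or up to 2 lowest-p genes per pathway list, up to 2 genes per marker list, and the 3 genes most like Ccnd2. Beyond this rule Tspan31 was named after its values were seen; of the mitosis calls and marker lists only examples are printed, and 1 HSPC marker is not reported here.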

Additional observations from a re-analysis of the deposited data

Results flagged for a closer look

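Among the 20 sets of 4 values (10 genes in 2 groups), 1 held a library far from the others: Cdkn1a in WT 3, at 22.5 CPM, against 17.7 to 17.98 CPM in the other WT libraries. The gap took up 0.935 of the group's range, above the 95% critical value of Dixon's test for 4 values. Chance marks about 1 in 20 such sets. Without WT 3 the log2 fold change of Cdkn1a was -0.24, against -0.33 with it, and neither passed.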

How the results depend on the processing

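In 16 of 18 alternatives Ccnd2 was the call among the 10 genes, and the calls ended only in both fits on libraries 1 to 3 of each group. There the log2 fold change of Ccnd2 was 0.25 with the replicate block (adjusted p = 0.147) and 0.25 without it (adjusted p = 0.0574), and 0 of the 10 genes passed in either. No pairing by replicate number was seen: the correlations of deviations for pairs 1, 2 and 3 were -0.0607, -0.0165 and -0.000331. Pairs of unlike number had -0.0249 to 0.0542. With so few libraries, and deviations taken within each group, this cannot exclude a pairing. With the block 123 genes were higher and 189 lower, and 0 pathway genes passed; on the same libraries with no block there were 134 higher, 211 lower and 1 pathway gene. Over all genes 267 were higher and 352 lower from 8 libraries, 448 higher in DESeq2 and 422 higher in limma-voom with sample weights. Leaving out 1 library gave 137 to 382 higher (175 without library 2, 137 without library 3 and 154 without the unnumbered library labelled Hdc-/-, 170 without WT 2, 382 without WT 1) and 242 to 433 lower; pathway calls, 3 from 8 libraries, ran from 1 (without library 2, 3 or the unnumbered one labelled Hdc-/-) to 4 (without WT 1), and the members called stayed at 1. Log2 fold changes near 0 changed sign. With 1 library left out they ran from -0.11 to 0.136 for Cdkn1b, -0.311 to 0.10 for Cdkn2d, -0.0341 to 0.425 for Ccnd1, -0.0562 to 0.0182 for Cdk6 and -0.0242 to 0.0490 for Cdk7 (-0.0202 without the unnumbered library). With the block they were -0.00741 for Cdkn1b, 0.0232 for Cdkn2d, 0.00272 for Ccnd3 and -0.00732 for Cdk7. On those 6 libraries with no block they were -0.0230 for Cdkn1b, 0.000767 for Cdkn2d, -0.00841 for Ccnd1, 0.000599 for Ccnd3, 0.000855 for Cdk6 and -0.00948 for Cdk7. The cause was not tested. With longest transcripts in place of exon unions, Cdkn1a stood above Cdk6 in WT and above Cdkn1c in library 3 labelled Hdc-/-. Among the 10 genes Cdkn2d had the fewest reads, 46 to 115, and the largest CV from counting alone, 11.3% in libraries labelled Hdc-/- and 11.2% in WT, below its observed CVs.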
